A study of Mus musculus with 18 samples.

Results

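The circadian clock of the mammary gland was examined through 10 clock genes in virgin female mice whose Ron receptor lacked its tyrosine kinase domain (RonTK-/-) and in wild-type controls (RonTK+/+). The genes were Nr1d1, Nr1d2, Dbp, Per1, Per2, Per3, Cry1, Arntl (also called Bmal1), Npas2 and Clock. All probe sets annotated to exactly 1 of these symbols were taken, which gave 24 of the 45101 probe sets of the array and 10 of 18193 measured genes. Total RNA of whole glands at 5, 6 or 7 weeks of age had been hybridised to Affymetrix mouse genome arrays. There were 3 arrays for each genotype at each age, 18 arrays in 6 groups, and no treatment is recorded. The labels name no cell type to which the deletion is restricted, and all cell types of the gland were measured together. No label used here gives the strain background, the time of day at which glands were collected, or whether an array held 1 animal or a pool. P-values therefore measure the spread between these arrays, which may be technical in part.

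Nearly every mammalian cell runs a molecular clock built on a loop of transcription. The activator BMAL1 (encoded by Arntl) pairs with CLOCK or NPAS2, binds E-boxes and turns on the Per and Cry genes, whose protein products in turn silence the activators. The same activators drive Nr1d1 and Nr1d2, which encode the REV-ERB nuclear receptors. These repress Arntl and Npas2 through RORE sites and also delay Cry1, so that Nr1d1, Dbp and the Per genes peak in a part of the day when Arntl, Npas2 and Cry1 are low. DBP is an output activator that binds D-boxes. A single array gives only 1 time point of a rhythm.

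Promoter sequences are shown for 3 clock genes with such elements. Each is in at least 1 of the 4 pairs of clock genes whose transcripts correlated across arrays. The pairs concerned are Nr1d1 with Cry1 and with Dbp, and Per3 with Dbp. RefSeq windows of build GRCm38.p6, from 250 bases before to 50 after each transcript start, were matched for 9 of the 10 genes, in 13 windows. Capitals mark a match on either strand to the E-box CACGTG, the related E-prime box CACGTT, also found reversed on the other strand, or the D-box TTANGTAA, and no matches overlap. Only the 250 bases before the start are printed. All 3 genes lie on the minus strand.
Nr1d1, chr11:98775378-98775627: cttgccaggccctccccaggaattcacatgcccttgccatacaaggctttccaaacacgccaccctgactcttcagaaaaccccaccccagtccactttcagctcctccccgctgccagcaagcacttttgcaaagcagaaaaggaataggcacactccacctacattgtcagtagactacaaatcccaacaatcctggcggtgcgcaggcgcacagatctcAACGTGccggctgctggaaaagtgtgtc
Cry1, chr10:85185055-85185304: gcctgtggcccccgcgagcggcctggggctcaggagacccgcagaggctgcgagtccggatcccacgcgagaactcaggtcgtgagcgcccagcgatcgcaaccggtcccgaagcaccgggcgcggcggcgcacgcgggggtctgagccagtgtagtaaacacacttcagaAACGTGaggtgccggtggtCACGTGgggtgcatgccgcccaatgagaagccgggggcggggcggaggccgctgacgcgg
Per3, chr4:151044666-151044915: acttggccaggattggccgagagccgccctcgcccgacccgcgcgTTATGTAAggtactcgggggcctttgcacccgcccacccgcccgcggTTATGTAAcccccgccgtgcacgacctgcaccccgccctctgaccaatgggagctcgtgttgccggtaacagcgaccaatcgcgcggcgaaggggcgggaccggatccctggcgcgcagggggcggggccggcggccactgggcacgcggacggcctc

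With the base before the start counted as -1, the Nr1d1 window held an E-prime box that begins at -28. The Cry1 window held an E-prime box at -79 and an E-box at -60, and the Per3 window held a pair of D-boxes at -205 and -158. An E-box was also found at -166 before a start of Per1. The core of the RORE, TAGGTCA, was matched in 1 window of Arntl, beginning at base 31 of the transcript. The windows of Dbp, Nr1d2, Npas2 and Clock held none of these elements, although Dbp and Nr1d2 are in the correlated pairs. Over all 32851 windows of this length, 7.15% held the E-box, 4.68% the E-prime box, 2.32% the D-box and 2.61% the RORE core. Such matches occur in many promoters and are descriptions of the sequence only.

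The deposited values were linear ratios, mostly to the median of the RonTK+/+ arrays, and are given here as log2 ratios, where 1 unit is a 2-fold difference. A gene's value is the mean over its probe sets. The level of 1 gene cannot be set against that of another on this scale, and signal over background is unknown. No 2 arrays held the same values. The Ron gene itself, Mst1r, was between -0.31 and 0.49 in the 9 RonTK+/+ arrays and between -0.43 and 1.07 in the 9 RonTK-/- arrays. It was 0.30 ± 0.13 in RonTK-/- relative to RonTK+/+ arrays over the 3 ages (SE, n = 9 arrays per genotype; adjusted p = 1.00 by limma), and no source used here says whether its probes lie in the deleted region. Its level is therefore no check of the genotype labels. Glands differed in content: the mean of 20 skeletal muscle markers lay between 0.0062 and 0.59 in 10 arrays and between -5.56 and -3.66 in the other 8. In bulk tissue, fewer cells of a type and less RNA per cell cannot be told apart.

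The clock genes differed widely in how much they varied over the 18 arrays. Dbp and Nr1d1 varied most, with standard deviations of 0.57 and 0.52 log2 units that exceeded those of 94.7% and 93.6% of all measured genes. Per1 (89.6%), Nr1d2 (83.2%), Cry1 (81.4%) and Per2 (77.5%) followed. Arntl (74.6%), Per3 (70.0%) and Npas2 (64.2%) lay lower, and Clock, whose transcript cycles weakly in most tissues, lay at 39.9%. A mean over probe sets that disagree can have a smaller spread, which bears on Clock (r from -0.37 to 0.85) and Npas2 (r = 0.14). The part of this in the order of the genes was not tested.

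**Figure D1:**
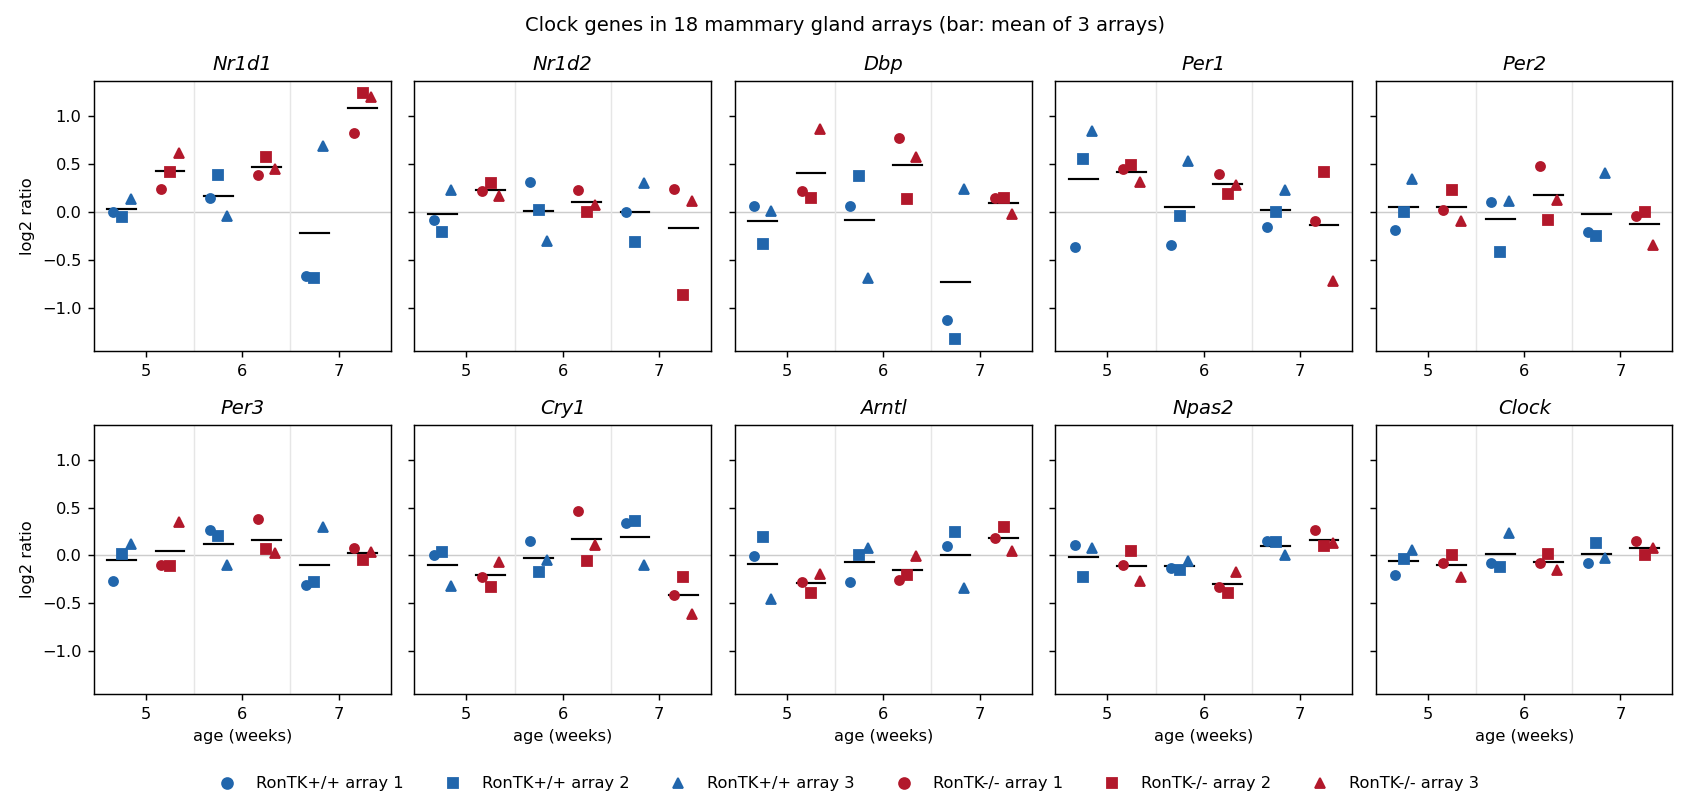
Log2 ratio of each clock gene (vertical axis) in the 18 arrays by age in weeks (horizontal axis), with RonTK+/+ arrays in blue on the left and RonTK-/- arrays in red on the right of each age, a marker shape for each array number, and a bar at the mean of 3 arrays. RonTK+/+ arrays 1 and 2 at 7 weeks lie at -0.66 and -0.69 for Nr1d1 and at -1.12 and -1.32 for Dbp, apart from the other arrays.

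Among the nuclear receptor repressors, Nr1d1 was measured by 1 probe set. Its log2 ratios in RonTK+/+ arrays 1 to 3 were 0.00, -0.05 and 0.14 in the 5-week group, 0.15, 0.39 and -0.04 in the 6-week group and -0.66, -0.69 and 0.69 in the 7-week group. In RonTK-/- arrays they were 0.24, 0.42 and 0.62 in the 5-week group, 0.39, 0.57 and 0.45 in the 6-week group and 0.83, 1.24 and 1.19 in the 7-week group. The RonTK-/- arrays were above all RonTK+/+ arrays at 5 and 7 weeks, and at 6 weeks the lowest RonTK-/- value nearly equalled the highest RonTK+/+ value. RonTK+/+ array 3 at 7 weeks stood 1.35 units or more above the other arrays of its group. Nr1d1 overlaps the end of Thra, a thyroid hormone receptor gene on the opposite strand, for which the values at 7 weeks were -0.09, -0.19 and 0.23 in RonTK+/+ and 0.19, 0.35 and 0.19 in RonTK-/- arrays.

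Nr1d2, the paralog of Nr1d1, did not share that pattern. Its values at 7 weeks were 0.00, -0.31 and 0.30 in RonTK+/+ and 0.24, -0.87 and 0.12 in RonTK-/- arrays, and the groups overlapped at every age. The lowest value came from 1 of its 2 probe sets, which read -1.79 in RonTK-/- array 2 while the other read 0.054. The probe sets correlated at r = 0.45 over the 18 arrays.

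Dbp followed Nr1d1 in the RonTK+/+ glands. In RonTK+/+ arrays 1 to 3 it was 0.064, -0.34 and 0.0051 in the 5-week group, 0.064, 0.37 and -0.69 in the 6-week group and -1.12, -1.32 and 0.24 in the 7-week group. In RonTK-/- arrays it was 0.22, 0.15 and 0.86 in the 5-week group, 0.77, 0.13 and 0.57 in the 6-week group and 0.14, 0.14 and -0.016 in the 7-week group. The genotypes did not overlap at 5 weeks and overlapped at 6 and 7 weeks. Its pair of probe sets correlated at r = 0.99, so these values do not rest on 1 probe set.

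The Per genes, which encode partners of the CRY repressors, varied less by group. Per1, which also responds to glucocorticoids and other acute signals, was lowest in RonTK-/- array 3 at 7 weeks (-0.72) and highest in RonTK+/+ array 3 at 5 weeks (0.84). Per2 ran from -0.42 to 0.48 and Per3 from -0.31 to 0.38, with the highest value of both in RonTK-/- array 1 at 6 weeks. The 2 lowest values of Per3, -0.31 and -0.28, were those of RonTK+/+ arrays 1 and 2 at 7 weeks, the arrays that were lowest in Nr1d1 and Dbp. No Per gene separated the genotypes at any age.

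Cry1, a repressor of the activator complex, was the mirror of Nr1d1 at 7 weeks. It was 0.33, 0.36 and -0.10 in the RonTK+/+ arrays and -0.41, -0.23 and -0.61 in the RonTK-/- arrays, with no overlap. At 5 weeks the RonTK+/+ values were 0.00, 0.035 and -0.32 and the RonTK-/- values -0.23, -0.33 and -0.072. At 6 weeks they were 0.16, -0.17 and -0.048 for RonTK+/+ and 0.46, -0.058 and 0.11 for RonTK-/-. At those ages the genotypes overlapped.

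The activator genes had a smaller range. Arntl was -0.0063, 0.19 and -0.45 in the RonTK+/+ arrays and -0.28, -0.39 and -0.19 in the RonTK-/- arrays at 5 weeks. At 7 weeks its RonTK+/+ values were 0.10, 0.24 and -0.34 and its RonTK-/- values 0.19, 0.30 and 0.047. At 6 weeks it was -0.28, 0.0028 and 0.074 against -0.25, -0.21 and -0.0071. Npas2, the alternative partner of BMAL1, was -0.13, -0.15 and -0.054 in the RonTK+/+ arrays and -0.32, -0.39 and -0.17 in the RonTK-/- arrays at 6 weeks, without overlap. Clock stayed between -0.23 and 0.24 in all arrays. In the 3 RonTK-/- arrays at 7 weeks Arntl (0.047 to 0.30) and Nr1d1 (0.83 to 1.24) were both above their medians over the 18 arrays (-0.0067 and 0.39), although their phases are known to be opposite. The 2 probe sets of Arntl (r = 0.57) differed there: 1 read 0.54, 0.59 and 0.27 and the other -0.17, 0.0075 and -0.17. Probe sets of Npas2 (r = 0.14) and Clock (r from -0.37 to 0.85) disagreed as well, and the 6 probe sets of Per3 correlated from 0.084 to 0.91 (median 0.58).

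Whether loss of the Ron kinase domain altered the clock genes was asked over the 3 ages and at each age. Nr1d1 and Dbp were higher in RonTK-/- glands on average, but neither passed the adjusted threshold. Over the 3 ages 0 of the 10 clock genes were called by limma at an adjusted p under 0.05, where 0.0605% of all genes (11) were called. At an unadjusted p under 0.05 there were 2 of 10, against 3.77% of all genes. Nr1d1 differed by 0.67 ± 0.16 (SE, n = 9 arrays per genotype), a 1.59-fold higher level (adjusted p = 0.656 by limma). Dbp differed by 0.63 ± 0.21, 1.55-fold (adjusted p = 1.00 by limma). Cry1 differed by -0.18 ± 0.093 (adjusted p = 1.00 by limma). The differences of the remaining 7 genes lay between -0.07 and 0.082. The median difference of the 10 genes was 0.049 against 0.0028 for all genes, with 6 of 10 above 0 against 51.8%.

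At 7 weeks the differences were larger. Nr1d1 was 1.31 ± 0.27 higher in RonTK-/- glands (SE, n = 3 arrays per genotype; 2.47-fold, 95% confidence interval of the difference 0.72 to 1.89), with an adjusted p = 0.204 by limma. Cry1 was -0.61 ± 0.16 (adjusted p = 0.351 by limma) and Dbp 0.82 ± 0.36 (adjusted p = 0.485 by limma). Thra, the overlapping neighbour of Nr1d1, was 0.26 ± 0.11 (adjusted p = 0.478 by limma). Here 0 of 10 genes were called, where 0.0330% of all genes were, and 3 of 10 had an unadjusted p under 0.05 against 9.75% of all genes. Arrays did not overlap between the genotypes for 2 of 10 clock genes, Nr1d1 (higher in RonTK-/-) and Cry1 (lower), against 9.73% of all genes. The other 7 genes had differences between -0.17 and 0.17 with standard errors up to 0.31.

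**Figure D2:**
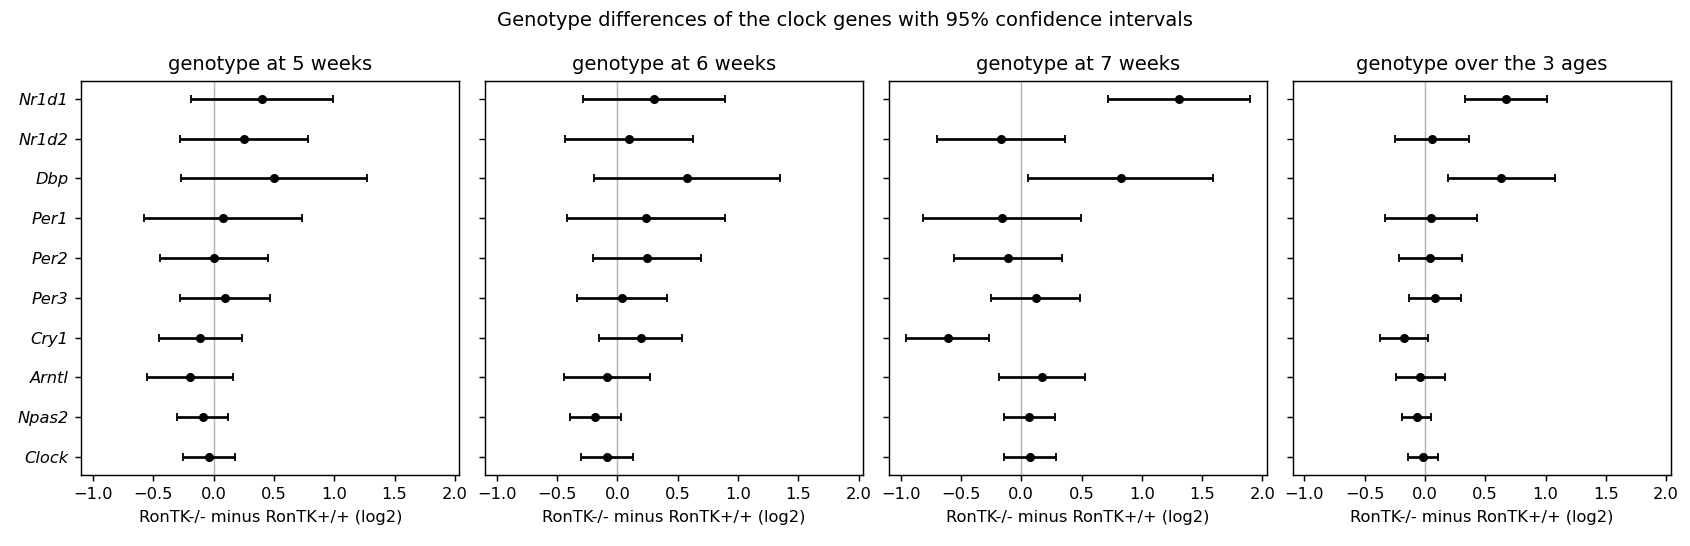
RonTK-/- minus RonTK+/+ difference in log2 ratio (horizontal axis) of the 10 clock genes at 5, 6 and 7 weeks and over the 3 ages, with points for limma estimates and bars for 95% confidence intervals not adjusted for the number of genes. At 7 weeks the intervals of Nr1d1 (0.72 to 1.89), Dbp (0.056 to 1.59) and Cry1 (-0.95 to -0.27) lie off 0, and at 5 and 6 weeks all intervals include 0.

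No clock gene was called at 5 or 6 weeks. At 5 weeks 0 of 10 were called, where 0.0110% of all genes were, and the largest differences were those of Dbp (0.50 ± 0.36) and Nr1d1 (0.40 ± 0.27), with an adjusted p of 1.00 by limma for each. These were also the 2 of 10 whose arrays did not overlap, against 8.21% of all genes. At 6 weeks 0 of 10 were called against 0.0165% of all genes. Dbp was 0.58 ± 0.36 (adjusted p = 0.840 by limma), Nr1d1 0.30 ± 0.27 (adjusted p = 0.850 by limma) and Npas2 -0.18 ± 0.098 (adjusted p = 0.815 by limma). Npas2 was the 1 gene of 10 without overlap, against 14.3% of all genes. At an unadjusted p under 0.05 there were 0 of 10 at each of these ages, against 3.42% and 6.15% of all genes. Nr1d1 and Dbp thus had the same sign at all 3 ages, while the sign of Cry1 at 6 weeks (0.19 ± 0.16) was opposite to that at 7 weeks. In the arrays of 5 and 6 weeks alone the mean differences were 0.35 for Nr1d1 and 0.54 for Dbp (adjusted p = 1.00 by limma for each).

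The genotype by age interaction was called for 0 of 10 clock genes and for 0% of all genes. Unadjusted, 2 of 10 had a p under 0.05 against 6.82% of all genes, namely Cry1 (F = 6.38) and Nr1d1 (F = 4.08), each with an adjusted p of 0.697 by limma. The size of the differences at 7 weeks is thus not shown to differ from that at the other ages.

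A single array had much weight in these results. RonTK+/+ array 3 at 7 weeks had Nr1d1, Dbp and Cry1 at 0.69, 0.24 and -0.10, each nearer to the RonTK-/- arrays than the other arrays of its group were. Without it, 3 of the 10 clock genes were called at 7 weeks, Nr1d1 at 1.76 (adjusted p = 6.95e-05 by limma), Cry1 at -0.76 (adjusted p = 0.0174) and Dbp at 1.31 (adjusted p = 0.0200), while the number of all genes called went from 6 to 886. Nr1d1 was then also called over the 3 ages (0.82, adjusted p = 0.000311), in the interaction (F = 33.9, adjusted p = 0.0101) and with age in RonTK+/+ glands (-0.70, adjusted p = 0.0193). In the same order, the number of all genes called went from 11 to 41, from 0 to 122 and from 19 to 350. These calls were therefore not particular to Nr1d1. When array 2 of that group was left out instead, the 7-week differences came to 1.07 for Nr1d1 and 0.53 for Dbp.

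Between 5 and 7 weeks, a time when ducts grow through the fat pad, 0 of 10 clock genes were called with age in RonTK+/+ glands, where 0.104% of all genes were. The same count was 0 of 10 in RonTK-/- glands, where 0.0385% of all genes were called. Unadjusted p-values under 0.05 were found for 0 of 10 in RonTK+/+ (8.92% of all genes) and for 3 of 10 in RonTK-/- glands (17.5% of all genes). The 3 were Npas2 (0.27 from 5 to 7 weeks, F = 11.1, adjusted p = 0.140 by limma), Cry1 (-0.21, F = 6.84, adjusted p = 0.221) and Arntl (0.46, F = 4.13, adjusted p = 0.276). The F takes in all ages and does not test the difference from 5 to 7 weeks alone. At 5, 6 and 7 weeks the RonTK-/- means were -0.11, -0.30 and 0.16 for Npas2, -0.21, 0.17 and -0.41 for Cry1, and -0.29, -0.15 and 0.18 for Arntl. Nr1d1 was 0.66 higher at 7 than at 5 weeks in RonTK-/- glands (adjusted p = 0.288 by the limma F over all ages) and -0.25 in RonTK+/+ glands (adjusted p = 0.859). Age in RonTK-/- glands went with tissue content, most of all between 6 and 7 weeks. The mean of the skeletal muscle markers was -5.55 to -3.66 in the arrays of 6 weeks and 0.15 to 0.37 in those of 7 weeks. In arrays 1 to 3 of 5 weeks it was 0.46, 0.54 and -5.19. Effects of age and of tissue content cannot be told apart between 6 and 7 weeks, and so in the F over all ages. From 5 to 7 weeks they are mixed in part.

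To place each array on the opposition of the phases, a clock contrast was computed. Each gene was centred on its mean over the 18 arrays, and the mean of Arntl, Npas2, Clock and Cry1 was taken from the mean of Nr1d1, Nr1d2, Dbp, Per1, Per2 and Per3. In RonTK+/+ arrays 1 to 3 it was -0.26, -0.14 and 0.29 in the 5-week group, 0.029, 0.053 and -0.28 in the 6-week group and -0.68, -0.84 and 0.33 in the 7-week group. In RonTK-/- arrays it was 0.20, 0.27 and 0.41 in the 5-week group, 0.34, 0.16 and 0.16 in the 6-week group and -0.0032, -0.041 and -0.012 in the 7-week group. The 2 lowest arrays were RonTK+/+ arrays 2 and 1 at 7 weeks, while array 3 of the same group was among the highest. Within RonTK+/+ groups the standard deviation was 0.29, 0.18 and 0.63 at 5, 6 and 7 weeks, and within RonTK-/- groups 0.11, 0.10 and 0.020 (n = 3 each). The contrast averages over genes, so a small value does not mean that the arrays were alike gene by gene. In the 7-week RonTK-/- arrays the standard deviations of single genes ran from 0.060 (Per3) to 0.57 (Per1) and 0.60 (Nr1d2).

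By group, the mean contrast was -0.036, -0.066 and -0.40 in the RonTK+/+ arrays and 0.29, 0.22 and -0.019 in RonTK-/- glands at 5, 6 and 7 weeks. RonTK-/- glands thus had the higher mean at each age, by 0.33, 0.29 and 0.38, and the genotypes were apart without overlap at 6 weeks only. The difference at 7 weeks came from Nr1d1, Dbp, Cry1 and, less so, Per3, and the other genes went against it. Nr1d2 (-0.17), Per1 (-0.16) and Per2 (-0.11) were lower and Arntl (0.17), Npas2 (0.067) and Clock (0.070) higher in RonTK-/- glands. The contrast is a description of the arrays and was not tested. Leaving out RonTK+/+ array 3 at 7 weeks made the difference at that age 0.74, and leaving out array 2 made it 0.16. In RonTK+/+ groups the range between arrays was larger than the difference at the same age, up to 1.17 units at 7 weeks. In RonTK-/- groups it was smaller than the difference at each age.

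The 2 low arrays were unlike in tissue content. RonTK+/+ array 1 at 7 weeks had skeletal muscle transcripts (marker mean 0.44) and few of B lymphocytes (-2.09), whereas array 2 had the reverse (-5.48 and 0.054). Array 3, which had the opposite clock contrast, was close to array 1 in both (0.26 and -1.90). Over all arrays, the contrast ran from -0.68 to 0.33 (median 0.013) in the 10 arrays with muscle transcripts and from -0.84 to 0.41 (median 0.11) in the 8 without. With the muscle markers as a covariate the difference of Nr1d1 at 7 weeks was 1.28, and among the arrays with muscle transcripts alone it was 1.07 (adjusted p = 0.175 and 0.965 by limma). Of the 7-week arrays, that set lacks only RonTK+/+ array 2, 1 of the 2 low arrays. The 1.07 is thus the same as the difference with that array left out. At 7 weeks white adipocyte markers were lower in the 2 low arrays. Their mean over 12 genes was -0.50 and -0.20 in RonTK+/+ arrays 1 and 2, 0.19 in array 3 and 0.063 to 0.42 in RonTK-/- arrays. At the other ages they did not follow the contrast in every array: RonTK+/+ array 3 at 6 weeks had a contrast of -0.28 and a marker mean of 0.30. At 7 weeks 12 of the 12 markers were higher in RonTK-/- glands against 55.4% of all genes. An unadjusted p under 0.05 was found for 6 of the 12, against 9.75% of all genes, with 0 called by limma. Their part in the clock result was not tested, and ratios cannot show whether a marker is absent. The mean of 12 luminal epithelium markers was nearly equal in the 6 arrays, from 0.39 to 0.49. Single markers were less alike. By limma, 3 of the 12 had an unadjusted p under 0.05 at 7 weeks, against 9.75% of all genes. Of these, 1 was higher and 2 were lower in RonTK-/- glands, and 0 were called.

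**Figure D3:**
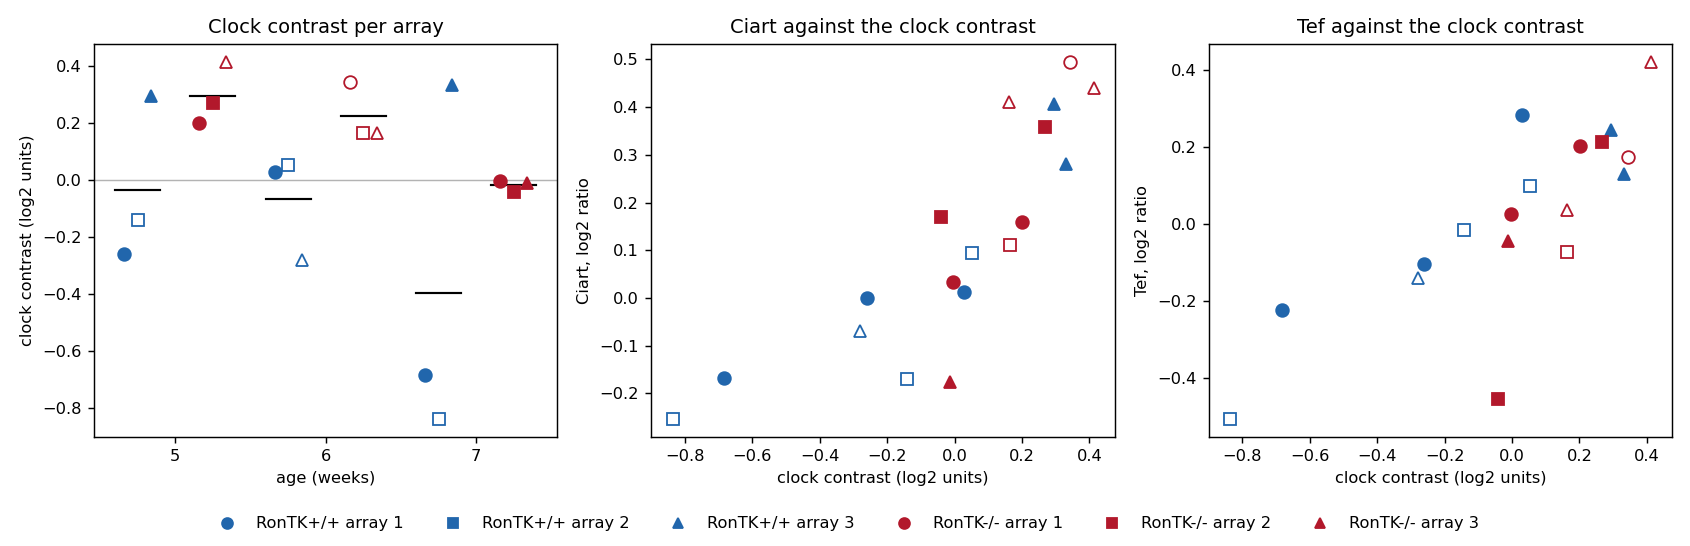
Clock contrast in log2 units by age in weeks (left), and log2 ratio of the clock genes Ciart (middle) and Tef (right) against that contrast, for 18 arrays, with RonTK+/+ in blue, RonTK-/- in red, filled symbols for the 10 arrays with skeletal muscle transcripts, open symbols for the 8 low in them, and bars at group means. RonTK+/+ arrays 1 and 2 at 7 weeks are lowest at -0.68 and -0.84. Ciart (r = 0.83) and Tef (r = 0.79) do not enter the contrast. They are shown because their r with it was seen to be high, so that they lie along it is no test.

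Whether the genes moved against each other across arrays was examined over the 45 pairs of the 10 genes. Of the 24 pairs that join the opposite-phase sets, 20 had a negative Pearson r (median -0.24), and of the 15 pairs among Nr1d1, Nr1d2, Dbp and the Per genes 13 had a positive r (median 0.33). Among Arntl, Npas2, Clock and Cry1, 4 of 6 were positive (median 0.18), and the negative ones were those of Cry1 with Npas2 and Clock. These counts are descriptions, since pairs share genes.

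After Benjamini-Hochberg adjustment over the 45 pairs, 4 passed an adjusted p of 0.05 by a two-sided permutation test with 100000 resamples over 18 arrays. Nr1d2 and Arntl gave r = -0.75 (p = 9e-05, adjusted p = 0.00405; Spearman rho = -0.77, p = 0.00033, adjusted p = 0.0148). Dbp and Per3 gave r = 0.74 (p = 0.00032, adjusted p = 0.0072; rho = 0.63, p = 0.00579, adjusted p = 0.0868). Nr1d1 and Dbp gave r = 0.69 (p = 0.00204, adjusted p = 0.0235; rho = 0.59, p = 0.0122, adjusted p = 0.0902). Nr1d1 and Cry1 gave r = -0.67 (p = 0.00209, adjusted p = 0.0235; rho = -0.63, p = 0.00534, adjusted p = 0.0868). Only the Nr1d2 and Arntl pair thus passed by both measures.

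Without the 2 arrays farthest from the median of the first gene, r was -0.68 for Nr1d2 and Arntl, 0.57 for Dbp and Per3, 0.32 for Nr1d1 and Dbp, and -0.49 for Nr1d1 and Cry1, and 0 of 45 pairs passed. The link of Nr1d1 with Dbp therefore rested on RonTK+/+ arrays 1 and 2 at 7 weeks. As deviations from the group means, permuted within groups, r was -0.69, 0.80, 0.80 and -0.55 in the same order, and only Nr1d2 with Arntl passed (adjusted p = 0.0444). With quantile normalization 3 pairs passed. Dbp with Per3 (r = 0.54, adjusted p = 0.138) and Nr1d1 with Cry1 (r = -0.59, adjusted p = 0.0873) were not among them, and Per1 with Per2 was (r = 0.71, adjusted p = 0.0209, permutation test). Leaving out either RonTK+/+ array 1 or 2 at 7 weeks also ended the calls of Nr1d1 with Dbp (adjusted p = 0.101 and 0.154) and of Nr1d1 with Cry1 (0.0889 and 0.125). The latter was lost without RonTK-/- array 1 or 3 at 7 weeks as well (0.0545 and 0.120). The pair Nr1d1 and Arntl, a repressor and its target, gave r = -0.077 over all arrays (adjusted p = 0.884, permutation test).

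**Figure D4:**
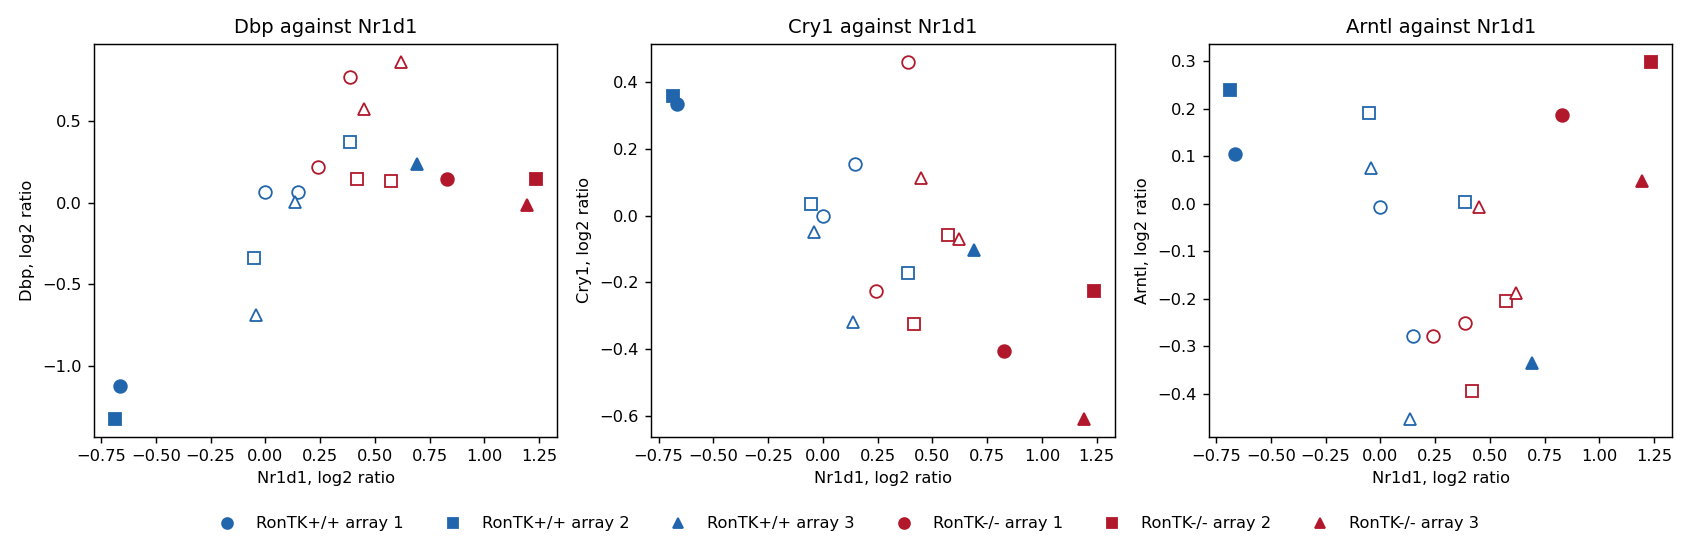
Log2 ratios of Dbp (left), Cry1 (middle) and Arntl (right) against that of Nr1d1 in 18 arrays, with RonTK+/+ in blue, RonTK-/- in red, filled symbols for 7 weeks and open symbols for 5 and 6 weeks. Dbp rises with Nr1d1 through RonTK+/+ arrays 1 and 2 at 7 weeks (r = 0.69), Cry1 runs against it (r = -0.67), and Arntl shows no line over all arrays (r = -0.077).

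The pairs differed by tissue content. In the 8 arrays low in muscle transcripts, 14 of 45 pairs passed, among them Nr1d2 with Dbp (r = 0.96, adjusted p = 0.00405 by permutation test), Nr1d1 with Dbp (r = 0.93, adjusted p = 0.0284) and Nr1d1 with Arntl (r = -0.85, adjusted p = 0.0284). Nr1d1 with Npas2 (r = -0.86) and with Nr1d2 (r = 0.84) also passed there (adjusted p = 0.0456 for each, permutation test). In the 10 arrays with muscle transcripts 0 of 45 pairs passed, and the same pairs gave r = 0.074, 0.65, 0.30, 0.17 and -0.32. There Nr1d1 with Cry1 was -0.77 and Nr1d2 with Arntl -0.69 (adjusted p = 0.200 for each, permutation test). The difference between the 2 sets of arrays was not tested. The sets also differ in age and genotype: the 3 RonTK-/- arrays of 7 weeks all had muscle transcripts and the 3 of 6 weeks had few.

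**Figure D5:**
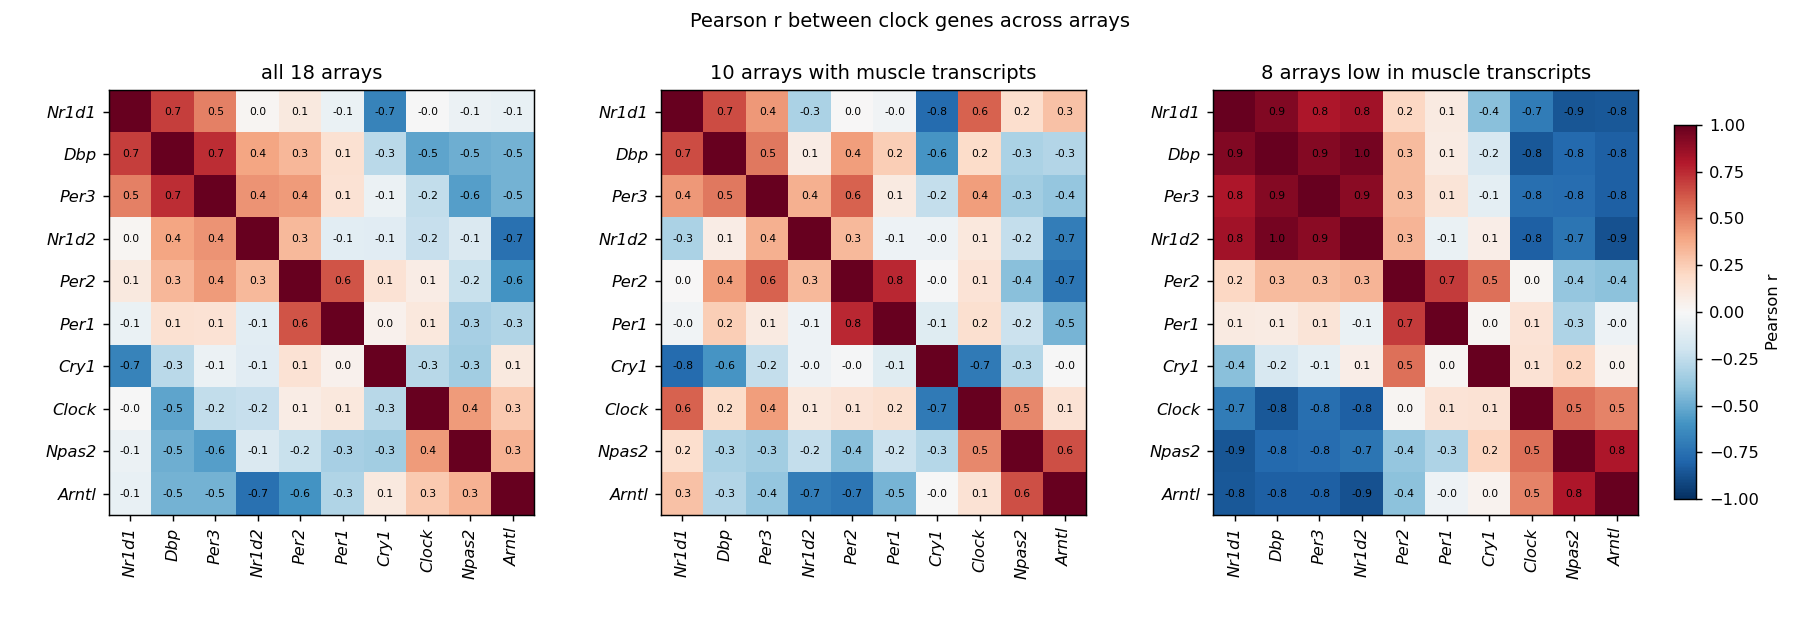
Pearson r between each pair of the 10 clock genes, as colour and number, over all 18 arrays (left), the 10 arrays with skeletal muscle transcripts (middle) and the 8 arrays low in them (right). In the arrays low in muscle, Nr1d1, Dbp, Per3 and Nr1d2 form a block of positive r, opposed to Arntl, Npas2 and Clock, with r = 0.96 for Nr1d2 and Dbp and -0.87 for Nr1d2 and Arntl.

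Genes outside the 10 whose pattern was most like the clock contrast were ranked by Pearson r over the 18 arrays among 18183 genes. The highest was Ciart, which encodes a repressor of the BMAL1 complex, at r = 0.83 (rho = 0.87). It held at 0.83 without RonTK+/+ arrays 1 and 2 at 7 weeks, at 0.78 in the arrays with muscle transcripts and at 0.87 in those without. Coq10b, listed among genes that cycle in many tissues, was next at r = 0.81, followed by Mepe and Pex19 at 0.80 and Fgf12 at 0.79. Tef, a relative of Dbp that binds the same D-boxes, was 6th (0.79), Nampt, which encodes an enzyme of NAD synthesis with a known daily rhythm, was 76th (0.66), and Hlf, another relative of Dbp, was 141st (0.62). Other known clock and output genes were weaker, such as Ppara (0.41), Tspan4 (0.40), Cry2 (0.33) and Bhlhe40 (0.32). Some followed the contrast little, such as Usp2 (0.22), Bhlhe41 (0.19), Pdk4 (0.021) and Wee1 (-0.12). Lonrf3 (-0.50) and Timeless (-0.52) ran against it. The lowest of the ranking were Smarca4 (-0.89), Zfp239 (-0.86), Acin1 (-0.85), Dctd (-0.82) and Ctnnd2 (-0.82). Without the 2 lowest arrays, r was 0.75 for Coq10b, 0.61 for Mepe, 0.59 for Pex19, 0.66 for Fgf12 and 0.68 for Tef, and 0.41 for Nampt and 0.43 for Hlf. On the negative side it was -0.72 for Smarca4, -0.64 for both Zfp239 and Acin1, -0.39 for Dctd and -0.29 for Ctnnd2. These r values are descriptions of ranked genes and carry no test.

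The arrays of 7 weeks show how far this likeness goes. Ciart was -0.17, -0.25 and 0.28 in the RonTK+/+ arrays and 0.034, 0.17 and -0.18 in the RonTK-/- arrays at 7 weeks. Tef was -0.22, -0.51 and 0.13 against 0.027, -0.46 and -0.043. In both genes RonTK+/+ array 3 lay above the other arrays of 7-week RonTK+/+ glands, as it did for Nr1d1, Dbp and Per3. The RonTK-/- arrays did not follow their contrast as closely: Ciart in array 3 and Tef in array 2 were as low as or lower than in RonTK+/+ array 1.

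Other genes of the clock were called in no comparison. Of 12 measured genes of the loop and its accessory factors, 0 passed over the 3 ages. Bhlhe40 (0.47 ± 0.21), a repressor at E-boxes, and Ciart (0.21 ± 0.095) had an unadjusted p under 0.05 (adjusted p = 1.00 by limma for each). The median of the 12 was 0.024. At 7 weeks Timeless was -0.56 ± 0.24 (adjusted p = 0.485 by limma) and Cry2, the paralog of Cry1, was 0.42 ± 0.20 (adjusted p = 0.514), opposite in sign to Cry1. Of 17 measured regulators of clock proteins, such as the casein kinases that mark PER for decay, 0 passed in any comparison. At 7 weeks the median of the 17 was 0.039 against 0.017 for all genes, and Sfpq (-0.43 ± 0.19, adjusted p = 0.485 by limma) had the smallest p.

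Of 13 output genes that cycle in many tissues, 0 passed at 7 weeks, and 2 had an unadjusted p under 0.05 (1 higher and 1 lower), against 9.75% of all genes. Wee1, which encodes a cell cycle kinase under E-box control, was 0.24, 0.28 and -0.047 in the RonTK+/+ arrays and -0.44, -0.62 and -0.57 in the RonTK-/- arrays. The genotypes did not overlap, and the difference was -0.70 ± 0.14 (adjusted p = 0.180 by limma). Ppara, a fatty acid sensing nuclear receptor, was -0.75, -1.08 and -0.048 against 0.59, 0.50 and 0.42, a difference of 1.13 ± 0.27 (adjusted p = 0.284 by limma). In both genes RonTK+/+ array 3 was again nearer to the RonTK-/- arrays than arrays 1 and 2 were. The median difference of the 13 genes was 0.16 against 0.017 for all genes, with 9 of 13 above 0 against 55.4%.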

How the data were processed

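The 18 arrays were grouped by the genotype and age in their labels. The authors' deposited values are linear ratios per probe set; this was read from the values, since the median of the 9 RonTK+/+ arrays lies within 1e-04 of 1 for 87.4% of probe sets. No source used here names the software, the background correction or the probe set summary. Values were used as log2 ratios without a pseudocount, since the log2 intensities assumed when the tests were laid out were not what the table holds. Of 45101 probe sets, 64 controls were left out, 34945 had 1 gene symbol, 932 several and 9160 none. Of those with 1 symbol, 34741 matched RefSeq (GRCm38.p6), which changed 0 symbols. A gene's value is the mean log2 ratio of its probe sets with 1 symbol, which gave 18193 genes.

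The software was limma 3.58.1 in R 4.3.3, data.table (1.17.8), pandas 2.3.3 and matplotlib 3.10.9 in Python 3.11.15. A limma model with a mean per group (lmFit, then eBayes) took in all 18 arrays, with 12 residual degrees of freedom and a prior of 1.94, and was tested on simulated data. Genotype differences are moderated t statistics and age and interaction effects moderated F statistics, two-sided, with Benjamini-Hochberg adjustment over all genes and calls at 0.05. Age differences are 7 minus 5 weeks, while the F and p-value printed with them take in all 3 ages. Precision is limited by having 3 arrays per group. The clock genes and all gene lists were chosen with earlier results of these data known, so no list supports its own direction. All 10 clock genes were named, with the 5 genes of highest and the 5 of lowest r with the contrast, and from each other list up to 4 genes with the smallest p. Cry2, Thra, Tef, Nampt, Hlf and the white adipocyte markers were described after their values were seen. So were the other clock and output genes named with their r to the contrast. Other settings covered normalization, array weights, the replicate number, probe set summaries, marker covariates, sets of arrays and leaving out each array.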

Additional observations from a re-analysis of the deposited data

How the results depend on the processing

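The count of called clock genes stayed 0 in all 7 comparisons under quantile normalization, median centring, a pseudocount of 0.1, probe sets tested alone or summarised by their median, the muscle or B lymphocyte markers as a covariate, the arrays with or without muscle transcripts, and a threshold of 0.1. With array weights (limma's gene-by-gene method, since the default did not converge) it was 1 over the 3 ages (Nr1d1, 0.75), 2 at 7 weeks (Nr1d1, 1.56, and Cry1, -0.78) and 4 with age in RonTK-/- glands, where the same weights called 23, 546 and 5357 of all genes. Leaving out each array gave 0 to 1 over the 3 ages, 0 to 3 at 7 weeks, 0 to 1 in the interaction and 0 to 1 with age in RonTK+/+ glands, always through RonTK+/+ array 3 at 7 weeks. No called value changed sign. Pairs that passed, 4 over all arrays, numbered 3 with quantile normalization, 5 with the median of the probe sets, 1 as group deviations, 0 with muscle transcripts, 14 without, 8 as residuals on the muscle markers, 0 without the 2 farthest arrays, and 2 to 7 when each array was left out (2 without RonTK+/+ array 2 and 7 without RonTK-/- array 2, both at 7 weeks). The clock contrast kept its direction in all 60 alternatives.

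Over all genes, counts of calls ran from 1 to 41 over the 3 ages (11), 0 to 10 at 5 weeks (2), 0 to 10 at 6 weeks (3), 0 to 886 at 7 weeks (6), 0 to 122 in the interaction (0), 0 to 592 with age in RonTK+/+ (19) and 0 to 5357 with age in RonTK-/- glands (7). Deviations of same-numbered arrays from their group means correlated from -0.82 to 0.63, with 5 of 9 over 0.1. Those of differently numbered arrays correlated from -0.56 to 0.89, with 8 of 18 over 0.1. Tissue content also enters these deviations, so they cannot show whether the replicate numbers pair the arrays. With the replicate block the count of called clock genes was 0 in each comparison, and Nr1d1 at 7 weeks had an adjusted p of 0.215 by limma. A fit of only the groups compared has no separate form for the mean over ages and the interaction. The arrays with muscle transcripts give no value at 6 weeks and those without give none at 7 weeks.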

Other observations

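Lists of genes that respond to handling, stress hormones or temperature held no called gene in the comparisons of genotype. Of 13 glucocorticoid response genes, 3 had an unadjusted p under 0.05 at 5 weeks, against 3.42% of all genes, and all 3 were lower in RonTK-/- glands: Mt2 (-0.98 ± 0.29), Zbtb16 (-0.95 ± 0.41) and Mt1 (-0.44 ± 0.20), with an adjusted p of 1.00 by limma for each. At 7 weeks Mt1 was 0.43 ± 0.20 (adjusted p = 0.507 by limma). The mean of the list was highest in RonTK+/+ array 3 at 5 weeks (0.83). That array was also highest in Per1, but Per1 is itself 1 of the 13 genes, so these values are not independent. Of 10 temperature response genes, Hsp90aa1 (-0.24 ± 0.10) and Hspa8 (-0.29 ± 0.13) had an unadjusted p under 0.05 at 7 weeks (adjusted p = 0.480 and 0.504 by limma), where 9.75% of all genes did. Of 14 immediate early genes, Atf3 did so at 7 weeks (0.71 ± 0.32, adjusted p = 0.488 by limma) and Ier3, Zfp36 and Junb at 6 weeks (0.67, 0.63 and 0.52), where 6.15% of all genes did.

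RonTK+/+ arrays 1 and 2 at 7 weeks, which were unlike in muscle and lymphocyte transcripts, were nearly equal in genes that are not part of the clock. Ctnnd2 was 1.21 and 1.22 in them and between -0.33 and 0.22 in the other 16 arrays. Dctd was 0.90 in each and between -0.39 and 0.29 elsewhere. These genes were picked because they run against the clock contrast, so this is a description of the 2 arrays.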
